A study of Acipenser schrenckii with 6 samples.

Results

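The 2 loci described here, LOC117395457 and LOC117968291, are the features that the deposited table annotates as protein S100-G-like, out of 82023 features in all. They were picked by name because their level differed between diets in these same libraries, so their diet values are a description and carry no test. Gut RNA was measured in Amur sturgeon (Acipenser schrenckii) from artificial breeding, held in net cages ahead of a river release. The Limnodrilus group (3 libraries) received fresh Limnodrilus, a tubificid worm, for 30 days, and the commercial feed group (3 libraries) received a formulated diet for the same 30 days. The worms had been kept in the water source of the fish. Whether a library holds 1 fish or several is not given in the labels, and the p-values reflect only how these libraries spread, some of which may be technical.

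S100 proteins are small cytosolic proteins with a pair of EF-hands, the helix-loop-helix fold that binds calcium ions. In mammals, S100G is the small calbindin of the intestinal epithelium. It binds calcium that has entered the enterocyte through the channel TRPV6 and carries it to the plasma membrane calcium ATPase on the blood side, and its gene is induced there by vitamin D. The name of the sturgeon loci is an annotation by similarity, and a role in calcium uptake has not been assigned to them by the files. Sturgeons descend from an ancestor whose genome was duplicated, and many of their genes are kept as a pair of loci.

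Levels are in FPKM, fragments per kilobase of feature length scaled to library size. The recovered library totals were 13.9 to 19.7 M reads with Limnodrilus and 9.95 to 10.5 M reads with commercial feed. Commercial feed libraries 1 and 2 stood apart from the third in tissue markers. Smooth muscle markers (22 features, 17 tested, 0 called) summed to 2390 to 3392 FPKM with Limnodrilus, against 8289, 5131 and 662 FPKM in commercial feed libraries 1, 2 and 3. Brush-border markers (24 features, 20 tested, 5 higher) summed to 2100 to 9597 FPKM with Limnodrilus, against 87.2, 302 and 2376 FPKM in commercial feed libraries 1, 2 and 3. Ribosomal RNA features, nuclear and mitochondrial together, took 0.151% to 0.354% of reads in the Limnodrilus libraries and 0.927% to 2.86% in the commercial feed libraries. The mitochondrial 16S feature among them had 28135, 18781 and 32333 reads in Limnodrilus libraries 1, 2 and 3. It had 150776, 139961 and 67463 reads in commercial feed libraries 1, 2 and 3. It also counts as a mitochondrial feature, so the ribosomal and mitochondrial shares overlap. Mitochondrial features took 3.19% to 6.42% of reads with Limnodrilus and 23.7%, 3.88% and 2.06% in commercial feed libraries 1, 2 and 3, so commercial feed library 1 stood apart from the other 5.

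Both S100-G-like loci were low in every Limnodrilus library and far higher in every commercial feed library. LOC117395457 (NW_026708029.1, 125153 to 126742; 485 bases of counted length) had 2.82, 0.944 and 1.94 FPKM in Limnodrilus libraries 1, 2 and 3, against 63.3, 158 and 29.3 FPKM in commercial feed libraries 1, 2 and 3. LOC117968291 (NC_081223.1, 10859695 to 10862021; 525 bases) had 1.78, 0.387 and 0.559 FPKM in the Limnodrilus libraries, against 23.1, 75.1 and 9.62 FPKM in the commercial feed libraries. The diets did not overlap at either locus. Over the 23644 features tested, they did not overlap at 39.9%, and Limnodrilus lay below at 11.5%. Both loci lay past the adjusted p threshold of 0.05 as lower with Limnodrilus, which 3.64% of tested features did; since the loci were chosen on this contrast, nothing is read from that.

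LOC117395457 averaged 1.901 ± 0.941 FPKM with Limnodrilus and 83.4 ± 66.5 FPKM with commercial feed (SD, n = 3 each). The mean with commercial feed was 43.9 times that with Limnodrilus, and the lowest commercial feed library was 10.4 times the highest Limnodrilus library. On the log2(FPKM + 1) scale, which understates changes of low features, the difference (Limnodrilus minus commercial feed) was -4.60, the second most negative of the tested features. LOC117968291 averaged 0.910 ± 0.762 FPKM with Limnodrilus and 35.9 ± 34.6 FPKM with commercial feed. There the mean with commercial feed was 39.4 times that with Limnodrilus, the closest libraries differed 5.39-fold, and the log2 difference was -3.89, rank 10 among the tested features.

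**Figure D1:**
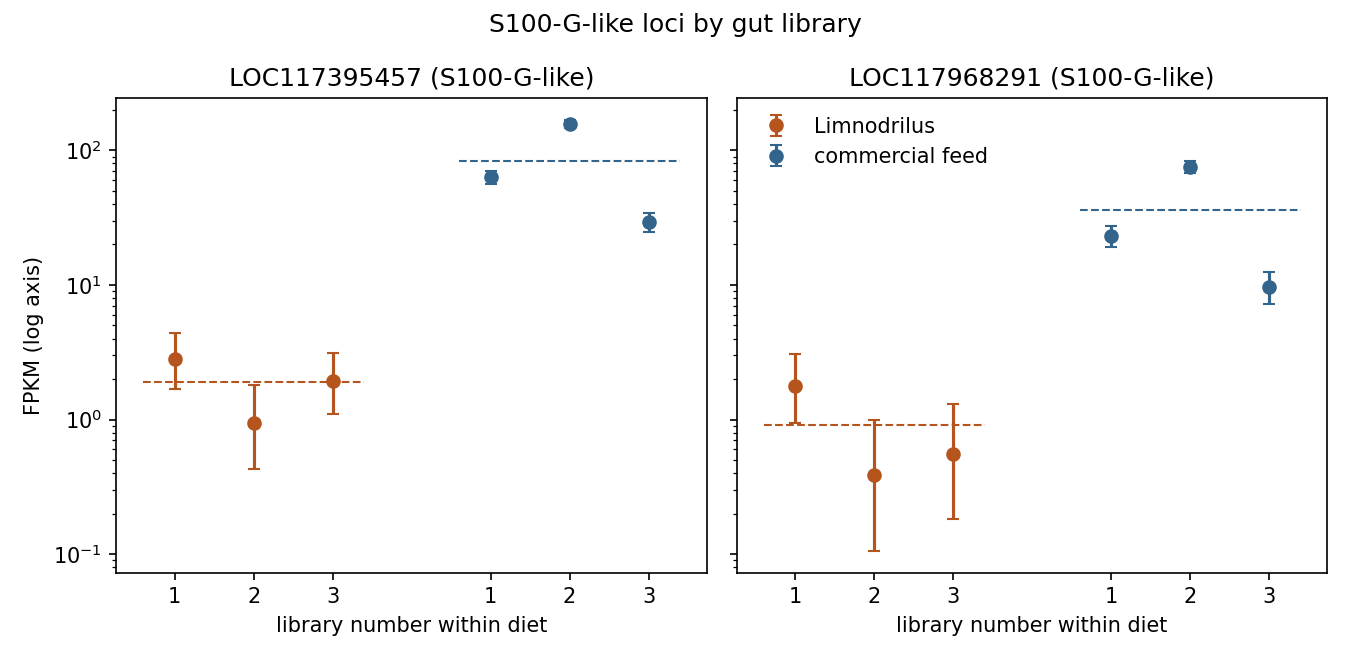
FPKM (log axis) of LOC117395457 and LOC117968291 in each of the 6 gut libraries, Limnodrilus in orange-brown and commercial feed in blue; bars are exact 95% Poisson intervals of the recovered reads, which cover counting error only, and dashed lines are diet means. All 3 Limnodrilus libraries lie below all 3 commercial feed libraries at both loci, and commercial feed library 2 is highest at both.

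One commercial feed library carries much of the size of these means. Without commercial feed library 2, the commercial feed mean was 46.3 FPKM for LOC117395457 and 16.3 FPKM for LOC117968291, and the log2 differences were -3.98 and -3.14. The Limnodrilus mean of LOC117968291 was 0.473 FPKM without Limnodrilus library 1. With commercial feed library 3 as the only library of its diet, the differences were -3.44 and -2.55.

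The reads behind the values were few with Limnodrilus. LOC117395457 was counted by 19, 9 and 16 reads in Limnodrilus libraries 1, 2 and 3 and by 317, 761 and 149 reads in commercial feed libraries 1, 2 and 3. LOC117968291 was counted by 13, 4 and 5 reads in the Limnodrilus libraries and by 125, 392 and 53 reads in the commercial feed libraries. The highest upper bound with Limnodrilus (exact Poisson, 95%) was 4.41 FPKM for LOC117395457 and 3.05 FPKM for LOC117968291. The lowest lower bound with commercial feed was 24.8 FPKM for LOC117395457 and 7.21 FPKM for LOC117968291. Each Limnodrilus value was above the level of 3 reads, which is 0.291 to 0.446 FPKM for these lengths and depths. At both loci the intervals of the 3 Limnodrilus libraries overlap, but only narrowly between libraries 1 and 2. For LOC117395457 the interval of library 1 began at 1.7 FPKM and that of library 2 ended at 1.79 FPKM. For LOC117968291 these bounds were 0.950 and 0.992 FPKM. Overlap of separate intervals does not decide whether an order exceeds counting error, and the order of these libraries was not tested.

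In commercial feed libraries 1 and 2 both loci were among the more abundant transcripts of the gut, and in library 3 LOC117968291 was less so. LOC117395457 exceeded 97.9%, 98.8% and 92.9% of the detected features in commercial feed libraries 1, 2 and 3, and LOC117968291 exceeded 93.9%, 97.7% and 78.8%. In the Limnodrilus libraries LOC117395457 exceeded 56.5%, 40.1% and 48.3% of detected features and LOC117968291 exceeded 47.6%, 27.5% and 28.3%. Both therefore stood in the middle or lower part of the detected range with Limnodrilus and in its upper part with commercial feed.

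The proportion of the pair did not differ between diets beyond its spread, and the Limnodrilus ratios rest on too few reads to show that it was kept. LOC117395457 stood at 1.58, 2.44 and 3.46 times the FPKM of LOC117968291 in Limnodrilus libraries 1, 2 and 3, and at 2.75, 2.10 and 3.04 times in commercial feed libraries 1, 2 and 3. The ratio averaged 2.49 ± 0.942 with Limnodrilus and 2.63 ± 0.482 with commercial feed (SD, n = 3 each), a difference smaller than the spread of either diet. Its exact binomial 95% interval ran from 0.680 to 10.8 in Limnodrilus library 2, which had 13 reads over both loci, and from 1.86 to 2.38 in commercial feed library 2, which had 1153. In all 6 libraries LOC117395457 was the higher of the pair, and in Limnodrilus libraries 1 and 2 the interval included a ratio of 1. If the loci are near-identical in sequence, reads could have been split between them by the counting, so their separate levels are uncertain to that extent.

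Within commercial feed the order was library 2, then 1, then 3 at both loci. Smooth muscle markers were highest in commercial feed library 1 and brush-border markers in library 3. Limnodrilus library 1 and commercial feed library 3 had similar brush-border sums (2100 and 2376 FPKM). They were not alike in smooth muscle sums (3392 and 662 FPKM) or leukocyte sums (23.5 and 109 FPKM). LOC117395457 was at 2.82 FPKM in Limnodrilus library 1 and at 29.3 FPKM in commercial feed library 3. LOC117968291 was at 1.78 FPKM in Limnodrilus library 1 and at 9.62 FPKM in commercial feed library 3. The same commercial feed library had less smooth muscle signal than any Limnodrilus library. In bulk tissue, fewer cells of a type and less RNA per cell cannot be told apart. The part of tissue composition in these levels was not tested.

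The other marker lists of the gut were looked at in the same way. Goblet cell features (59, of which 24 tested and 4 higher) summed to 1208 to 1936 FPKM with Limnodrilus and to 395 to 1596 FPKM with commercial feed. Leukocyte features (19, of which 6 tested and 0 called) summed to 23.5 to 54.1 FPKM with Limnodrilus and to 9.27 to 109 FPKM with commercial feed. Enteroendocrine and neural features (17, of which 11 tested and 1 higher) summed to 97.1 to 202 FPKM with Limnodrilus and to 31.7 to 102 FPKM with commercial feed. Erythrocyte features (13, of which 3 tested and 1 higher) summed to 92.4 to 352 FPKM with Limnodrilus and to 7.88 to 575 FPKM with commercial feed. Stratified epithelium features (7, of which 3 tested and 1 higher) summed to 98.4 to 148 FPKM with Limnodrilus and to 21.8 to 78.9 FPKM with commercial feed. All 7 lists had features listed at 0 in some library, 14 to 23 of the 59 goblet features in the commercial feed libraries among them. None of the 7 lists had a tested feature called lower with Limnodrilus. Over all tested features 14.0% were called higher and 3.64% lower, and few were tested per list, so nothing is read from these counts. The part of tissue composition in the S100-G-like values was not tested.

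The summed level of the S100 family did not show the difference of the pair. The 43 S100 features, members included, summed to 633, 1102 and 894 FPKM in Limnodrilus libraries 1, 2 and 3 and to 746, 568 and 290.0 FPKM in commercial feed libraries 1, 2 and 3. The S100-G-like pair made up 0.728%, 0.121% and 0.279% of that sum in the Limnodrilus libraries and 11.6%, 40.9% and 13.4% in the commercial feed libraries. LOC117395457 ranked 19, 26 and 22 in the family in Limnodrilus libraries 1, 2 and 3, and 5, 1 and 2 in commercial feed libraries 1, 2 and 3. In commercial feed library 2 the pair held the first and second place.

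**Figure D2:**
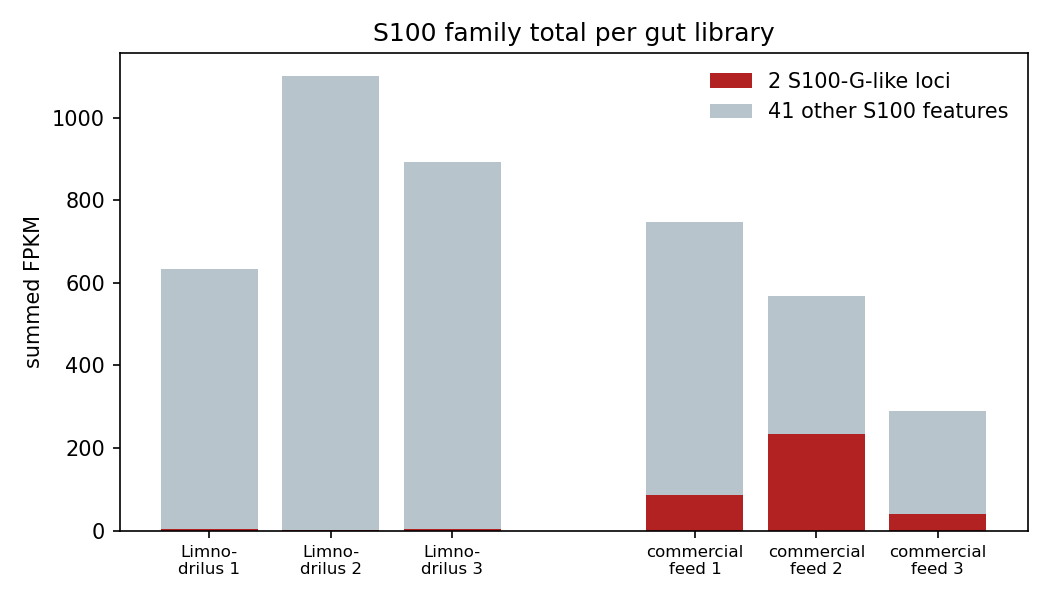
Summed FPKM of the S100 family in each gut library, with the S100-G-like pair in red and the 41 other S100 features in grey. The pair takes up to 40.9% of the sum in commercial feed libraries and at most 0.728% in Limnodrilus libraries.

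Of the 41 other S100 features, 22 had a mean of at least 1 FPKM and were tested in the fit over all features (limma-trend, Benjamini-Hochberg adjustment over 23644 features). Of these, 2 rose, 0 fell and 20 did not pass, or 9.09% called, against 17.7% of all tested features (14.0% higher and 3.64% lower). At an unadjusted limma p under 0.05 there were 6 higher and 1 lower. The share of all features at that cut is not given here, so nothing is read from this count or from those of later lists. Their median log2 difference was 0.70, against 0.24 over all tested features. The 3 Limnodrilus libraries lay above the 3 commercial feed libraries for 5 of the 22 and below them for 0; over all features these shares were 28.4% and 11.5%. All Limnodrilus libraries lay below all commercial feed libraries at the S100-G-like loci, which were chosen for it, and at 0 of the other 22 tested.

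The S100 features that rose were both annotated S100-B-like, after a mammalian protein best known from glial cells. LOC117968288 had 24.9, 139 and 93.6 FPKM in Limnodrilus libraries 1, 2 and 3 and 16.4, 1.78 and 1.69 FPKM in commercial feed libraries 1, 2 and 3, a log2 difference of 3.79 ± 0.88 (SE; limma adjusted p = 0.0271). LOC131705199 had 194, 473 and 382 FPKM in the Limnodrilus libraries and 150.0, 28.9 and 21.4 FPKM in the commercial feed libraries, a log2 difference of 2.82 ± 0.74 (limma adjusted p = 0.0395). Commercial feed library 1 was high at both, close to Limnodrilus library 1, and without it the commercial feed means were 1.73 and 25.1 FPKM in place of 6.61 and 66.7 FPKM. LOC131705199 was the most abundant tested S100 feature with Limnodrilus, at 350 ± 142 FPKM.

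These calls were not firm. Over 17 alternatives the adjusted p of LOC117968288 ranged between 0.0185 and 0.104 and passed in 10, and that of LOC131705199 ranged between 0.0159 and 0.137 and passed in 7. The number of other S100 features called was 1, 0 and 0 without Limnodrilus library 1, 2 or 3, and 5, 0 and 1 without commercial feed library 1, 2 or 3. Calls over all features moved from 4182 to 739, 707 and 638, and to 3438, 1862 and 6295, in the same runs. The loss of calls without a Limnodrilus library is therefore not particular to S100 features. Under median-of-ratios scaling 0 other S100 features were called.

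Among the S100 features that did not pass, the S100-A13-like and S100-P-like loci ranged widely. The S100-A13-like locus LOC131705356 had 3.97, 21.7 and 1.29 FPKM with Limnodrilus and 0.711, 0.553 and 0.700 FPKM with commercial feed (adjusted p = 0.112). The second, LOC131728666, had 14.5, 77.3 and 4.16 FPKM with Limnodrilus, and was listed at 0 in commercial feed library 1 and at 5.30 and 4.16 FPKM in libraries 2 and 3 (adjusted p = 0.136). The S100-P-like loci LOC117408694 and LOC117420604 averaged 129 ± 33.3 and 15.2 ± 8.27 FPKM with Limnodrilus and 82.3 ± 50.9 and 10.9 ± 15.6 FPKM with commercial feed. S100-A11-like LOC131705282 averaged 10.9 ± 5.36 FPKM with Limnodrilus and 12.5 ± 2.75 FPKM with commercial feed, a log2 difference of -0.27.

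The S100-A1-like features made up the largest named group of those tested. LOC131696565 had the most negative difference of the 22, with 2.77, 2.50 and 9.91 FPKM in the Limnodrilus libraries against 12.4, 20.6 and 7.33 FPKM in the commercial feed libraries (log2 difference -1.36, adjusted p = 0.127). Unlike at the S100-G-like loci, Limnodrilus library 3 lay above commercial feed library 3 there. LOC131705208 had 6.99, 8.07 and 6.92 FPKM with Limnodrilus and 5.66, 0.997 and 0.210 FPKM with commercial feed (log2 difference 1.72, adjusted p = 0.083). The others, LOC117962373, LOC117395447, LOC117968292, LOC117395448, LOC131705198, LOC117395446 and LOC117965056, had log2 differences of 1.19, 0.93, 0.15, -0.72, 0.27, -0.16 and -1.01. Those of LOC117968292 and LOC131705198 turned negative under median-of-ratios scaling. The S100-Z-like LOC117968290, LOC131705207, LOC117395451, LOC131705122 and LOC117965057 had differences of 1.29, 0.98, 0.62, 0.26 and -0.56, of which that of LOC131705122 turned negative under the same scaling. That locus overlaps LOC117395454 in position, so their reads may not have been told apart. S100-A6-like LOC117968287 had a difference of -0.07, which was positive under TPM.

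Both S100-G-like loci sit inside long runs of S100 features, a grouping made after the values were seen. On NW_026708029.1, 14 S100 features lie within 100 kb of LOC117395457, from 57507 to 146173, a span of 88.7 kb. On NC_081223.1, 15 lie within 100 kb of LOC117968291, from 10840292 to 10935799, a span of 95.5 kb. Read in opposite directions, the runs carry 13 S100 subtype names in the same order, against 8 when both are read forwards. Starting at the S100-A13-like feature, each run goes on to an S100-A1-like feature, the S100-G-like locus and an S100-Z-like feature, and near its far end holds the S100-B-like, S100-A6 and S100-A1-like features. Correspondence was read from names and positions only, and sequences were not compared.

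**Figure D3:**
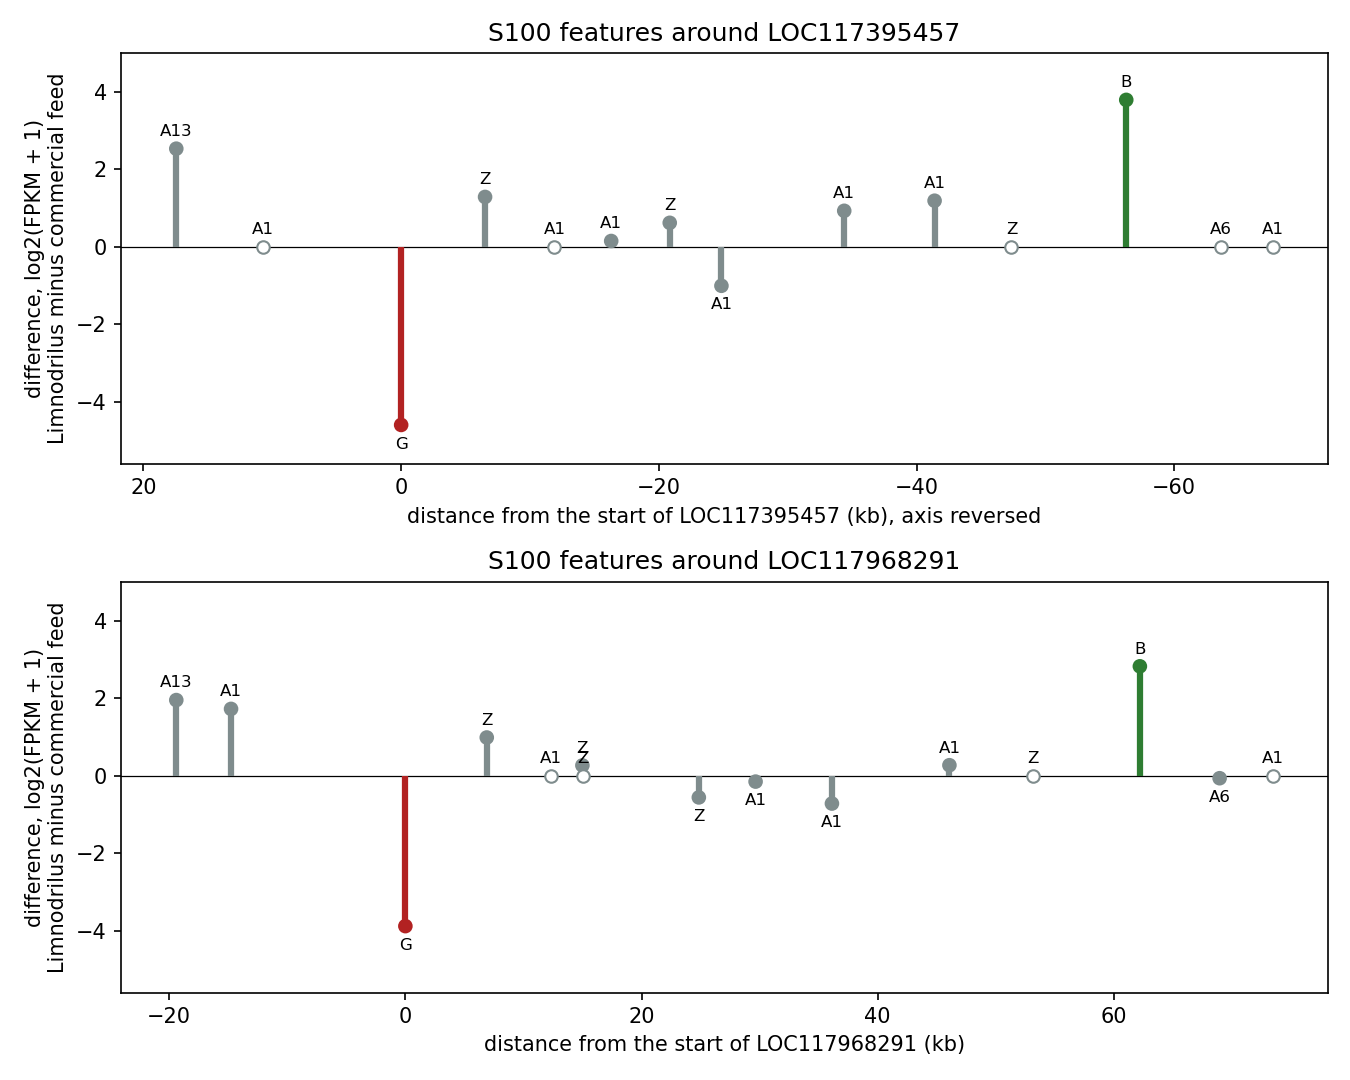
Difference in log2(FPKM + 1), Limnodrilus minus commercial feed, of the S100 features around LOC117395457 (top, axis reversed) and LOC117968291 (bottom) by distance from the start of that locus in kb; letters are S100 subtypes, red is the S100-G-like locus, green passed the test, grey did not and open circles were below the filter. In both runs the S100-G-like locus stands alone far below 0 and the S100-B-like feature is the highest.

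Of the S100 features beside the S100-G-like loci, 0 of those tested were called lower with Limnodrilus, against 3.64% of all tested features. So few were tested that a count of 0 lies near that share, and nothing is read from it. Of the 13 other S100 features around LOC117395457, 8 were tested, with 1 higher, 0 lower and differences between -1.01 and 3.79. Of the 14 around LOC117968291, 10 were tested, with 1 higher, 0 lower and differences between -0.72 and 2.82. The nearest tested features were S100-Z-like. LOC117968290, which starts 6.51 kb before LOC117395457, had 6.59, 4.27 and 6.16 FPKM with Limnodrilus and 3.92, 1.81 and 0.429 FPKM with commercial feed (log2 difference 1.29, adjusted p = 0.0981). LOC131705207, which starts 6.89 kb after LOC117968291, had 7.19, 5.27 and 6.70 FPKM with Limnodrilus and 6.61, 2.37 and 1.00 FPKM with commercial feed (log2 difference 0.98, adjusted p = 0.203).

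Of the 20 features that are the 5 nearest on each side of either locus, 16 were tested, 0 rose and 2 fell, or 12.5% called, against 17.7% over all tested features (3.64% lower), and their median log2 difference was 0.21. The unadjusted limma p was under 0.05 for 4 higher and 2 lower, from which nothing is read without the share over all features. The 2 that fell lie on the A13 side of each run, beyond the S100 features, and are annotated as the pre-B-cell leukemia transcription factor-interacting protein 1, which binds PBX homeodomain proteins in mammals. LOC117395215, 27.4 kb from LOC117395457, had 3.07, 3.96 and 2.48 FPKM with Limnodrilus and 9.41, 11.3 and 5.75 FPKM with commercial feed (log2 difference -1.21 ± 0.34 SE, adjusted p = 0.0491). LOC117965075, 37.9 kb from LOC117968291, had 2.19, 1.77 and 2.04 FPKM with Limnodrilus and 9.54, 21.5 and 5.11 FPKM with commercial feed (log2 difference -1.92 ± 0.48 SE, adjusted p = 0.0333). Its commercial feed mean was 12.04 FPKM, or 7.33 FPKM without commercial feed library 2. At both neighbours that fell, the diets did not overlap and the commercial feed libraries stood in the order 2, 1 and 3, as at the S100-G-like loci.

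The fall of these neighbours was smaller than the difference at the S100-G-like loci, and the call depended on the libraries. Over 17 alternatives it passed in 4 for LOC117395215 (adjusted p between 0.0192 and 0.228) and in 10 for LOC117965075 (between 0.0106 and 0.115). The number of neighbours called was 0 without any 1 of Limnodrilus libraries 1, 2 and 3 and 0 without commercial feed library 2. In those runs calls over all features fell too, from 4182 to 739, 707, 638 and 1862. Without commercial feed library 1 the 2 neighbours that fell lost their call, and 3 others, LOC117968290, LOC131705207 and LOC131705208, were called higher. Of the remaining neighbours, flad1, which makes flavin adenine dinucleotide, had 2.54, 2.13 and 3.52 FPKM with Limnodrilus and 2.35, 18.8 and 6.05 FPKM with commercial feed. The pygopus homolog 2 loci LOC117965055 and LOC117395414, named for a Wnt signalling cofactor, had log2 differences of 0.66 and 0.16, the second of which was negative under median-of-ratios and quantile scaling. An unannotated feature beside them had a difference of -0.73.

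The other components of transcellular calcium transport and vitamin D signalling were called at about the share of all features. The list held 49 features, of which 19 were tested, and of these 3 rose, 0 fell and 16 did not pass (15.8% called, against 17.7% over all tested features), with a median log2 difference of 0.36. At an unadjusted limma p under 0.05 there were 7 higher and 2 lower, from which nothing is read without the share over all features. The 3 Limnodrilus libraries lay above the 3 commercial feed libraries for 7 of the 19 and below them for 4. Over all tested features these shares were 28.4% and 11.5%. The entry channel trpv6 was listed at 0 in all 6 libraries. The calbindin-like locus LOC117399953, named for the larger vitamin D-dependent calcium binder, had 5.42, 6.13 and 5.09 FPKM with Limnodrilus and 0.941, 5.01 and 10.4 FPKM with commercial feed (adjusted p = 0.71). The diets overlapped there, and the highest and lowest values were both in commercial feed libraries.

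Vitamin D receptor loci overlapped between diets as well. LOC117401064 had 2.36, 4.84 and 3.07 FPKM with Limnodrilus and 1.06, 5.14 and 9.71 FPKM with commercial feed, and LOC117962563 averaged 2.997 ± 1.02 FPKM with Limnodrilus and 2.04 ± 0.964 FPKM with commercial feed. The 24-hydroxylase loci LOC117418538 and LOC117433450, enzymes that inactivate vitamin D, were under the filter, at no more than 0.263 and 0.758 FPKM with Limnodrilus and 0.796 and 2.19 FPKM with commercial feed. RXR-alpha-A LOC117396884, a partner of the vitamin D receptor and of several other nuclear receptors, had 10.4, 8.13 and 13.9 FPKM with Limnodrilus and 3.18, 4.34 and 3.79 FPKM with commercial feed (log2 difference 1.28 ± 0.32 SE, adjusted p = 0.0326).

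Loci for plasma membrane calcium-transporting ATPase 1, the pump that exports calcium on the blood side of the enterocyte in mammals, included 2 that rose and 2 that did not pass. LOC117419777 had 5.88, 4.20 and 4.30 FPKM with Limnodrilus and 0.971, 0.0840 and 0.458 FPKM with commercial feed (log2 difference 1.98 ± 0.34 SE, adjusted p = 0.0125). LOC117430723 had 4.79, 3.98 and 4.46 FPKM with Limnodrilus and 0.585, 0.439 and 1.36 FPKM with commercial feed (log2 difference 1.62 ± 0.31 SE, adjusted p = 0.0167). The most abundant locus of the list by its mean over all 6 libraries, LOC117414879, had 12.02, 9.51 and 7.99 FPKM with Limnodrilus and 51.4, 106 and 12.5 FPKM with commercial feed (log2 difference -1.98 ± 0.70 SE, adjusted p = 0.09). It did not pass, its diets did not overlap, and its commercial feed libraries stood in the order 2, 1 and 3, as at the S100-G-like loci. It passed as lower in 1 alternative, without commercial feed library 3 (log2 difference -2.81, adjusted p = 0.0084), and did not pass in the other 16. Without commercial feed library 2 its difference was -1.31 and its mean with that diet was 31.9 in place of 56.7 FPKM. LOC117396319 had 9.62, 7.62 and 8.003 FPKM with Limnodrilus and 13.4, 18.6 and 5.998 FPKM with commercial feed, which overlapped (log2 difference -0.42, adjusted p = 0.522). Without commercial feed library 1 the mean of LOC117419777 with that diet was 0.271 in place of 0.504 FPKM, and without library 3 that of LOC117430723 was 0.512 in place of 0.795 FPKM. The number called in the list was 0 without Limnodrilus library 1, 2 or 3, 1 without commercial feed library 2 and 6 without commercial feed library 3. In those runs calls over all features were 739, 707, 638, 1862 and 6295, in place of 4182.

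Cytosolic EF-hand proteins outside the S100 family included several abundant loci that were higher with Limnodrilus. Of 51 features 28 were tested, and 10 rose, 2 fell and 16 did not pass (42.9% called, against 17.7% over all tested features), with a median log2 difference of 1.02. At an unadjusted limma p under 0.05 there were 15 higher and 3 lower, from which nothing is read without the share over all features. Those that rose were calmodulin and calmodulin-like loci (6), a calcineurin B homologous protein 1 locus, a programmed cell death protein 6-like locus, a sorcin-like locus and a secretagogin-like locus. The calmodulin-like protein 4 loci, which belong to the brush border in mammals, had the largest differences. Brush-border marker sums were also lowest in commercial feed libraries 1 and 2, and their part in these differences was not tested. LOC117428566 had 70.6, 157 and 96.5 FPKM with Limnodrilus and 7.99, 8.81 and 16.0 FPKM with commercial feed (log2 difference 3.18 ± 0.43 SE, adjusted p = 0.00864). LOC117429464 had 73.3, 140.0 and 108 FPKM with Limnodrilus and 9.12, 16.4 and 26.1 FPKM with commercial feed (log2 difference 2.63 ± 0.46 SE, adjusted p = 0.0136).

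Calmodulin itself, the general calcium sensor of the cell, differed by locus. Calmodulin-1 LOC117396941 averaged 139 ± 15.1 FPKM with Limnodrilus and 30.2 ± 9.57 FPKM with commercial feed (adjusted p = 0.0114), and calm3a averaged 132 ± 24.4 FPKM with Limnodrilus and 34.3 ± 4.74 FPKM with commercial feed (adjusted p = 0.0129). Calmodulin-1 LOC117411142, the highest calmodulin locus with Limnodrilus, averaged 656 ± 133 FPKM there and 215 ± 56.8 FPKM with commercial feed (limma adjusted p = 0.0278). LOC117422034 averaged 242 ± 89.3 and 64.6 ± 18.6 FPKM with these diets (limma adjusted p = 0.0243). LOC117402950 averaged 231 ± 14.4 and 126 ± 78.6 FPKM and did not pass (limma adjusted p = 0.165). The most abundant locus by its mean over all 6 libraries, calmodulin-1 LOC117421147, averaged 455 ± 12.9 FPKM with Limnodrilus and 454 ± 106 FPKM with commercial feed and did not pass (log2 difference 0.03, adjusted p = 0.962). That difference was negative under median-of-ratios and quantile scaling. The calcineurin B homologous protein 1 locus LOC117421841, named for a cofactor of sodium/proton exchangers, averaged 9.72 ± 0.581 FPKM with Limnodrilus and 2.43 ± 0.989 FPKM with commercial feed (adjusted p = 0.017).

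The 2 EF-hand features that fell were centrin-3 LOC117403900, a centriole protein, and chp2, a calcineurin B homologous protein of the intestine in mammals. LOC117403900 had 24.2, 27.9 and 18.3 FPKM with Limnodrilus and 80.5, 112 and 114 FPKM with commercial feed (log2 difference -2.08 ± 0.34 SE, adjusted p = 0.012). chp2 had 90.9, 88.0 and 94.9 FPKM with Limnodrilus and 173, 316 and 543 FPKM with commercial feed, so commercial feed library 3, the lowest of its diet at the S100-G-like loci, was the highest here. The number called in the list was 2, 2 and 1 without Limnodrilus library 1, 2 or 3, and 7 without commercial feed library 2. In those runs calls over all features were 739, 707, 638 and 1862, in place of 4182.

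Annexins, calcium-dependent membrane binders that several mammalian S100 proteins attach to, were called at about the share of all features. Of 20 features 17 were tested, with 3 higher, 0 lower and 14 not passing (17.6% called, against 17.7% over all tested features), and the median log2 difference was 0.59. The unadjusted limma p was under 0.05 for 5 higher and 0 lower, from which nothing is read without the share over all features. Annexin A7-like LOC117418609 had 144, 204 and 149.5 FPKM with Limnodrilus and 49.3, 35.2 and 51.3 FPKM with commercial feed (log2 difference 1.85 ± 0.35 SE, adjusted p = 0.0155). The annexin A3-like loci LOC117404107 and LOC117403766 averaged 3.29 ± 1.71 and 3.30 ± 0.555 FPKM with Limnodrilus and 0.310 ± 0.204 and 1.03 ± 0.267 FPKM with commercial feed. The most abundant member by its mean over all 6 libraries, annexin A2-like LOC117429678, had 103, 190 and 229 FPKM with Limnodrilus and 157, 44.7 and 21.3 FPKM with commercial feed and did not pass (adjusted p = 0.157). The number called was 0 without Limnodrilus library 1, 2 or 3, 1 without commercial feed library 2 and 6 without commercial feed library 1 or 3. In those runs calls over all features were 739, 707, 638, 1862, 3438 and 6295, in place of 4182.

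**Figure D4:**
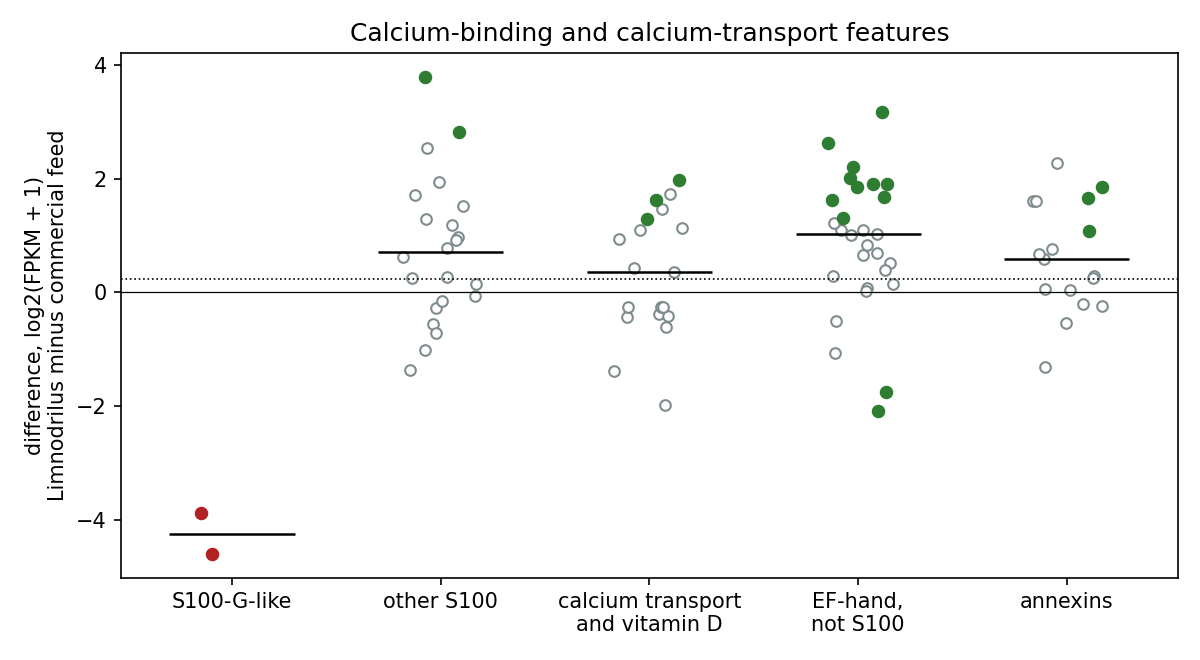
Difference in log2(FPKM + 1), Limnodrilus minus commercial feed, of the tested features of each list; filled green points passed the test, open points did not, red points are the S100-G-like pair (no test), bars are list medians and the dotted line is the median of all tested features, 0.24. The pair lies below each of the other points, the lowest of which are centrin-3 at -2.08 and a calcium ATPase locus at -1.98.

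The profile most like that of either S100-G-like locus, over the 23644 tested features, was that of the other. Likeness was the root mean square difference of log2(FPKM + 1), each feature centred on its own mean over the 6 libraries, and was 0.41 between the pair. The pair was picked for a shared contrast, so this closeness is a description. Among features with an annotated protein, those next nearest to LOC117395457 were cortactin-binding protein 2-like LOC117419751, coiled-coil domain-containing protein 110 (si:ch211-250c4.5), Krueppel-like factor 11 LOC117402481 and LOC117432197, a channel locus of the TPC family. Their distances were 0.77, 0.89, 0.91 and 0.98 from LOC117395457 and 0.49, 0.61, 0.69 and 0.67 from LOC117968291. Hox-A2-like LOC117400612, at 0.67 from LOC117968291, was nearer to that locus than Krueppel-like factor 11.

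The channel locus LOC117432197, named for a cation channel of lysosomes through which calcium can leave, had 9.46, 3.45 and 3.58 FPKM with Limnodrilus and 42.1, 70.8 and 19.0 FPKM with commercial feed. Homeobox loci were close too. hoxa2b had 9.27, 2.34 and 9.97 FPKM with Limnodrilus and 51.0, 89.1 and 24.5 FPKM with commercial feed, and Hox-A2-like LOC117400612 had 5.22, 1.21 and 3.07 FPKM with Limnodrilus and 28.5, 55.5 and 7.85 FPKM with commercial feed. The base excision repair enzyme neil1 was at 0.99 from LOC117395457, and UAP56-interacting factor-like LOC117411828, named for an mRNA export factor, was at 0.80 from LOC117968291. In each of these but neil1, commercial feed library 2 was the highest and library 3 the lowest of its diet.

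Transcripts that code for no protein were also among the nearest profiles. The 28S ribosomal RNA feature LOC131725163 ranked 2 in likeness to LOC117395457 (0.74) and 3 in likeness to LOC117968291 (0.61). It had 152, 41.2 and 82.5 FPKM with Limnodrilus and 1458, 1388 and 363 FPKM with commercial feed. The small nucleolar RNA U3 feature LOC117964356 ranked 4 for LOC117395457, with 11.5, 4.06 and 14.6 FPKM in the Limnodrilus libraries and 132, 178 and 193 FPKM in the commercial feed libraries. Neither nuclear ribosomal RNA nor U3 carries a long poly(A) tail when mature, and both were read here in libraries made by poly(A) capture. When FPKM was rescaled without ribosomal RNA, transfer RNA and mitochondrial features, the log2 differences of LOC117395457 and LOC117968291 were -4.71 and -4.01. The part of RNA quality in the S100-G-like values was not tested.

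**Figure D5:**
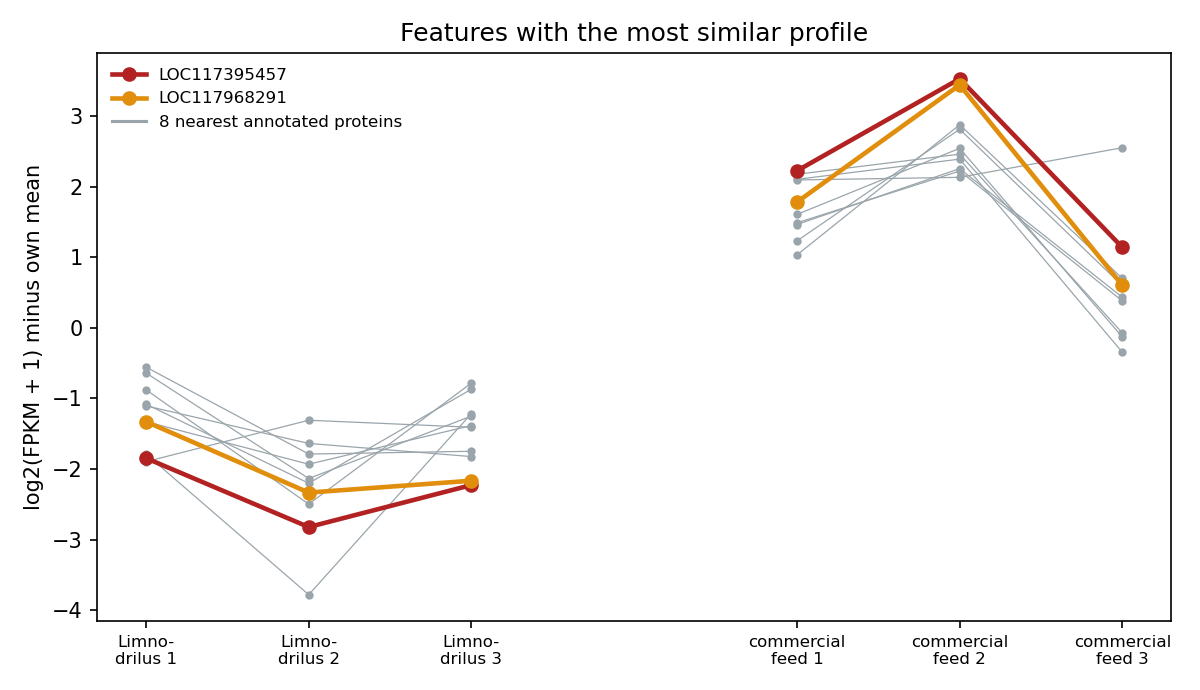
log2(FPKM + 1) minus each feature's own mean over the 6 libraries, for LOC117395457 (red), LOC117968291 (orange) and the 8 annotated proteins nearest to either (grey); lines join the values of a feature within a diet and imply no order of libraries. The Limnodrilus values lie below 0 for all 10 features, and in the commercial feed libraries 9 of them are lowest in library 3.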

How the data were processed

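Gut poly(A) RNA was sequenced in 3 Limnodrilus and 3 commercial feed libraries. The authors deposited a single table of FPKM that also lists length and position of each feature. The submitters' processing notes name cutadapt 1.9 and, as build, mm10. That is a mouse build and the table's sequence names are not from it, so coordinates are given as deposited. How reads were aligned, counted and assigned when they matched several places, and whether strand was used, is not stated in the sources used here. Sequences were not used here.

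Reads were recovered from FPKM times length. This came to a whole multiple of 1 step per library (within 0.1) for 100% of low values and 93.5% to 96.3% of all values. Intervals and floors from them cover counting error only. Features averaging 1 FPKM or more (23644) were compared between diets on log2(FPKM + 1) by limma-trend (limma 3.58.1, R 4.3.3; 2-sided; Benjamini-Hochberg over all of them), after a trial on simulated data. Alternatives were other pseudocounts, filters and scalings, TPM, limma without trend, limma-voom on recovered reads, a replicate block and leaving out libraries.

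Members and gene lists were chosen with earlier results of these data known. By rule, the text names all tested S100 features and neighbours. Of each further list it names at most 6 called features by smallest p, its most abundant feature over all libraries, and the tested vitamin D receptor and calbindin loci. It also names the 8 nearest profiles of annotated proteins per locus. chp2, the other EF-hand names beyond these, trpv6, the 24-hydroxylase loci, LOC117396319, LOC117422170 and the non-coding RNAs were named after their values were seen. Calcium-sensing receptor loci with a "-like" name were not counted in the calcium list.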

Additional observations from a re-analysis of the deposited data

How the results depend on the processing

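Few reads with Limnodrilus limit the order among those libraries, and 3 libraries per diet limit the calls. The S100-G-like differences kept their sign in every alternative run. The loci were chosen on this contrast and their diets did not overlap, so leaving out libraries could not turn the sign, and nothing is read from it. Over single libraries left out the differences ranged between -5.18 and -3.98 for LOC117395457 and between -4.56 and -3.14 for LOC117968291. With commercial feed libraries 1 and 2 both left out, an alternative chosen after seeing the data, they were -3.44 and -2.55, and limma-voom gave -5.06 for LOC117968291. The median of all features, 0.24 in the main fit, moved by more than 0.1 in several alternatives. It was 0.01 under median-of-ratios, -0.0316 under quantile scaling and 0.07 without a filter. With pseudocount 0.1 it was 0.36, under TPM 0.38, under voom 0.37 and without commercial feed library 3 0.38. Without commercial feed libraries 1 and 2 it was 0.08. The share of calls that were higher was 60.0% under median-of-ratios and 58.3% under quantile scaling in place of 79.4%. With a single library left out that share ranged between 70.7% and 90.7%.

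Over all features, 2625 were called with a mean of at least 5 FPKM, and 638 to 6295 with a single library left out, in place of 4182. For the other S100 features, the 2 calls became 0 under median-of-ratios, 1 without a filter, under quantile scaling, under voom and without ribosomal, transfer and mitochondrial RNA (also chosen after seeing the data), 8 without commercial feed libraries 1 and 2, and 0 to 5 with a single library left out. Calcium features gave 1 call with a mean of at least 5 FPKM and 0 to 6 with a library left out. EF-hand features gave 1 to 15 with a library left out. Annexins gave 1 with a mean of at least 5 FPKM, under quantile scaling and under voom, 6 without commercial feed libraries 1 and 2, and 0 to 6 with a library left out. Neighbours gave 1 with pseudocount 0.1, a mean of at least 5 FPKM, TPM, no trend and voom, 0 without a filter, and 0 to 3 with a library left out. Without commercial feed library 1 the 2 neighbours called lower lost their call. In that run 3 other neighbours, already positive in the main fit, were called higher.

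No label says that a library number marks a shared fish, cage or day. Deviations from the diet means correlated at 0.187, -0.069 and 0.075 between same-numbered libraries and at -0.251 to 0.133 between the others. With 3 libraries per diet these values cannot decide whether the numbers mark a pairing. With the replicate block 2607 features were called, with 0 other S100, 7 EF-hand, 1 annexin and 1 neighbouring feature among them.

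Features that did not pass changed sign as follows, and the cause was not tested. Under median-of-ratios LOC117968292, LOC131705122, LOC131705198, LOC117421147 and LOC117395414 were at -0.16, -0.035, -0.0385, -0.28 and -0.10. Under quantile scaling LOC117968292, LOC131705122, LOC117421147 and LOC117395414 were at -0.0893, -0.0125, -0.13 and -0.10. LOC117968287 was at 0.49 with pseudocount 0.1, 0.19 under TPM and 0.70 under voom. Without commercial feed libraries 1 and 2, LOC117395446, LOC117395448, LOC117408694, LOC117965057, LOC117968287 and LOC117399953 were at 0.32, 0.61, -0.14, 0.14, 2.13 and -0.80. LOC117421147 was at -0.0586 without ribosomal, transfer and mitochondrial RNA. With single libraries left out, the differences ranged as follows: LOC117395446 between -0.53 and 0.13, LOC117395451 between -0.045 and 1.34, LOC117968287 between -1.17 and 0.63, LOC117968292 between -0.55 and 0.72, LOC131705122 between -0.11 and 0.83, LOC131705198 between -0.50 and 0.72, LOC131705282 between -0.60 and 0.051, LOC117399953 between -0.34 and 0.93, LOC117401064 between -0.91 and 0.27, LOC117421147 between -0.13 and 0.20 and Novel01981 between -1.29 and 0.15.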
